A study of Mus musculus with 8 samples.

Results

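The 10 genes that are used as read-outs of glucocorticoid and metal exposure were followed in the pancreas of diabetes-prone NOD mice. They were chosen by name, and 9 of the 10 were among the 21597 gene symbols on the array. They comprise the glucocorticoid receptor *Nr3c1*, the receptor-induced genes *Fkbp5*, *Tsc22d3*, *Sgk1*, *Klf9*, *Cebpd*, *Cdkn1a* and *Zbtb16*, and the metallothioneins *Mt1* and *Mt2*. The 9 genes had 19 probes in all, and all 19 passed the filter on low signal (red signal no lower than 25 units on 4 or more of the 8 arrays). *Sgk1* is listed under its older symbol *Sgk*. *Zbtb16* had 0 probes under that symbol or an older one and was not analysed here. Each gene is described by its brightest probe, and the other probes are given beside it.

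The samples were whole pancreata from 8 female NOD mice, 12 weeks of age, each labelled red (Cy5) on an array of its own. The comparator on every array was green (Cy3) RNA from one pool of 8 age-matched NOD.B10 mice, a strain on the NOD background that carries the H2b haplotype. No array had the dyes exchanged, so strain and dye cannot be told apart, and a single pool shows no variation between NOD.B10 mice. In whole pancreas, fewer cells of a type and less RNA per cell cannot be told apart either. The ratio is log2 of NOD over pool, where 0 is no difference and 1 is 2-fold.

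Glucocorticoids bind a cytosolic receptor that is held ready by the heat shock chaperones, and the hormone-bound receptor enters the nucleus and switches genes on or off through DNA elements near them. *Fkbp5* encodes a co-chaperone that lowers the receptor's affinity for hormone and so closes a feedback loop, and *Tsc22d3* encodes GILZ, which restrains inflammatory transcription factors. Metallothioneins are small cysteine-rich proteins that bind zinc and other metals, and their genes respond to zinc through the factor MTF1 as well as to glucocorticoids and inflammation. *Cdkn1a* encodes p21, an inhibitor of cyclin-dependent kinases, and answers to p53 as well as to the glucocorticoid receptor.

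The arrays came on 2 slides, with mice 1 to 4 on slide 1 and mice 5 to 8 on slide 2. Which mice were on which slide was not crossed with anything else, so a difference between slides may lie in the mice or in the handling of the slide, and these cannot be told apart. The red dye was noisier on slide 2, where the software's median coefficient of variation between repeat spots of a probe was 38.2% to 63.5% per array, against 16.1% to 24.8% on slide 1. Red spots well above background made up 21.6% to 33.9% of spots on slide 2 and 30.1% to 35.3% on slide 1. All 10 acinar marker genes were well above background on all 8 arrays, as the pancreas label would have it.

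Promoter sequences are shown for the genes that differed most between slides and for the member with the clearest receptor element. They were taken from RefSeq windows of 300 bases on GRCm38.p6 (250 before and 50 after a transcription start), which is a different build from that of the probe positions below. *Mt1* and *Mt2* lie side by side on chromosome 8, and their windows were searched on both strands for the metal response element core, written TGCACNC or TGCGCNC. At least 3 matches were found in 1.97% of the 32851 windows searched and at least 4 in 0.517%. The *Mt1* window held 3 and the *Mt2* window 4, in capitals here:
Mt1 promoter (chr8:94178839-94179138, + strand): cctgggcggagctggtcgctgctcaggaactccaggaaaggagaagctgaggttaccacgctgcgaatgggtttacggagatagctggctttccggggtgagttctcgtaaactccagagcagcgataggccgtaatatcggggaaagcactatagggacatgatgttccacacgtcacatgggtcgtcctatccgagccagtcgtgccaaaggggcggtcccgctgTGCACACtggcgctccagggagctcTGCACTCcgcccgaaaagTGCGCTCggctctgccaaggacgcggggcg
Mt2 promoter (chr8:94172368-94172667, + strand): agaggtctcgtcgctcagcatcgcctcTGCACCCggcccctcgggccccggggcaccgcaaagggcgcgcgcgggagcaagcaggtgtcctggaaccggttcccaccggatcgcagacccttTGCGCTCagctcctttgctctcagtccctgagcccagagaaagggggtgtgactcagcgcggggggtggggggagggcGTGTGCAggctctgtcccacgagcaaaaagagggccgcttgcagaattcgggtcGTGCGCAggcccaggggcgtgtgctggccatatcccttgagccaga

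The first of the 2 *Cdkn1a* windows held 1 p53 element, with its core C and G letters kept and at most 2 mismatches elsewhere, which starts 51 bases before the transcription start. Such an element was found in 0.326% of all windows. It is in capitals in the stretch around it:
Cdkn1a promoter (chr17:29090868-29091007, + strand): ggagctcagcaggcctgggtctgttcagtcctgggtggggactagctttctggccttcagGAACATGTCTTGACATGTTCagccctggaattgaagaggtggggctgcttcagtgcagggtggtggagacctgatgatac

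The palindrome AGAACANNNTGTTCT, a full glucocorticoid response element, was found in 3 of the 32851 windows, or 0.00913%. Among the members it was found in 1 of 6 windows of *Sgk1*, in capitals here:
Sgk1 promoter (chr10:21993641-21993775, + strand): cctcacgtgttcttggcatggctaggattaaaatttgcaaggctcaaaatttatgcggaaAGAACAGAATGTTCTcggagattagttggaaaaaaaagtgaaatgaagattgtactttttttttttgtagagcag

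The shorter form GNACANNNTGTNC, which lies within the palindrome, was found in 0.475% of all windows. It occurred in the *Mt1* window, starting 94 bases before the transcription start, and in the same *Sgk1* window. The 3 windows of *Tsc22d3* and the 1 window each of *Fkbp5*, *Klf9* and *Mt2* did not hold these letters. No window is given here for *Nr3c1*, *Cebpd* or *Zbtb16*, and these statements do not cover them. A match is a string of letters and was not tested as a binding site.

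Against the NOD.B10 pool, the brightest probes of 9 genes gave no call in either direction, where a call is a change of at least 2-fold with a limma adjusted p under 0.01. Over all 28105 probes tested, 0.31% were called higher and 1.41% lower. At an unadjusted p under 0.05, whatever the fold, 3 of the 9 genes passed, against 33.8% of all probes. The median of the 9 mean log2 ratios was 0.15 and that of all probes tested was -0.09. *Tsc22d3* had the smallest adjusted p and *Cdkn1a* the widest spread between mice.

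*Nr3c1*, the receptor itself, had 4 probes. Its brightest probe gave log2 ratios of 0.25, 0.02, -0.08 and -0.29 in mice 1 to 4 and 0.49, 0.29, 0.29 and 0.26 in mice 5 to 8. The mean was 0.15 (SD 0.249, n = 8 mice, SE 0.09, limma adjusted p = 0.259), at a median of 119% of the pool, and the slide 2 mice all lay above the slide 1 mice, by a narrow margin. The slide difference of 0.35 (SE 0.12) did not pass the test (limma adjusted p = 0.171). It was 0.95 with median-centred signals and 0.71 after normexp and loess (limma adjusted p = 0.119 and 0.0331).

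The other 3 *Nr3c1* probes were dim, with red well above background on 0 or 1 arrays. One of them was called lower in NOD, with a mean of -1.11 (SD 0.598, n = 8 mice, limma adjusted p = 0.00927). Its red signals ran from 24 to 61 units, and on 3 arrays they were stand-in values that the software sets for spots near background. The remaining probes had means of -0.59 (limma adjusted p = 0.208) and 0.57 (limma adjusted p = 0.207). The 4 probes of the receptor thus did not share a direction, and the probe with signal on all 8 arrays was not called.

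*Fkbp5*, the feedback co-chaperone, was dim in NOD on all 3 of its probes. On its brightest probe (chromosome 17, 28165639 to 28165698 of mm8), the log2 ratios were -1.43, -1.80, -2.32 and 0.25 in mice 1 to 4 and -1.38, 0.69, -2.10 and -0.23 in mice 5 to 8. The mean was -1.04 (SD 1.13, n = 8 mice), with 6 mice below the pool and 2 above, and did not pass the test (limma adjusted p = 0.0956). It was -0.58 with median-centred signals and -0.0122 after normexp and loess. Red was well above background on 2 arrays and green on all 8. The other probes had means of -0.43 (limma adjusted p = 0.0694) and -0.20 (limma adjusted p = 0.499), with a red stand-in value on 7 of 8 arrays for each, so the size of any difference in *Fkbp5* was not measurable at this signal.

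*Tsc22d3*, which encodes GILZ, was higher than the pool in 8 of 8 mice. Its brightest probe (chromosome X, 135886092 to 135886152 of mm8) gave log2 ratios of 0.84, 0.66, 0.62 and 0.54 in mice 1 to 4 and 0.52, 0.51, 0.18 and 0.64 in mice 5 to 8. The mean of 0.57 (SD 0.187, n = 8 mice, SE 0.06) corresponds to 1.48-fold and passed the limma threshold (adjusted p = 0.00195) but not the 2-fold limit. The exact sign-flip permutation test gave p = 0.00781, the smallest that 8 arrays allow. Over all probes, 2.54% were higher with an adjusted p under 0.01 at any fold.

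The second *Tsc22d3* probe, also above the pool in 8 of 8 mice, had a mean of 0.39 (SD 0.226, n = 8 mice, limma adjusted p = 0.0133). The third and dimmest had a mean of 0.22, with 6 mice above and 2 below (limma adjusted p = 0.307). The adjusted p of the brightest probe was 0.158 with median-centred signals and 0.119 after normexp background correction with loess, where the means were 0.37 and 0.23. GILZ is also abundant in lymphocytes. Of 7 T cell marker genes, 7 had a mean above 0, with a median of 1.08 and 0 called, and 2 of the 7 had red well above background on 0 arrays. *Cd3e*, the only one with red well above background on all 8, had a mean of 0.61 (SD 0.305, n = 8 mice, limma adjusted p = 0.00762). Furthest from the pool were *Lck* and *Cd3d*, at 2.30 and 2.07 (limma adjusted p = 0.0128 and 0.0101), with red well above background on 4 and 3 arrays. The summed red signal of the T cell list was 6530 to 10795 units on slide 1 and 4360 to 16454 on slide 2, and its green signal 2652 to 8051. The part of these cells in the *Tsc22d3* result was not tested.

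*Sgk1*, a kinase that promotes sodium uptake and cell survival, split the mice evenly. Its brightest probe (chromosome 10, 21689000 to 21689059 of mm8) gave -0.27, 0.33, 0.88 and 0.73 in mice 1 to 4 and -1.14, 0.75, -0.77 and -0.14 in mice 5 to 8. The mean was 0.05 (SD 0.751, n = 8 mice, limma adjusted p = 0.957), with 4 mice above and 4 below the pool, and it turned to -0.61 with median-centred signals and -0.44 after normexp and loess. The slides overlapped, and the slide difference was -0.74 (SE 0.46, limma adjusted p = 0.445). That difference was -1.85 with median-centred signals (limma adjusted p = 0.0347) and -1.56 after normexp and loess (limma adjusted p = 0.0324). A second probe, with a red stand-in value on 7 of 8 arrays, was listed at a ratio of 0 in 7 mice.

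Among the transcription factors, *Klf9*, a Krüppel-like repressor that follows circadian glucocorticoid pulses, lay closer to the pool than *Cebpd*. Its brightest probe ran from -0.12 to 0.58 with a median of 0.03 over 8 mice, and the mean was 0.13 (SD 0.245, limma adjusted p = 0.310). On this probe the *Klf9* mean was 0.44 with median-centred signals and 0.25 after normexp and loess (limma adjusted p = 0.110 and 0.183). Without mouse 6 it was 0.07. A second *Klf9* probe had a mean of 0.14 (limma adjusted p = 0.302).

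*Cebpd*, an acute phase and adipogenic C/EBP factor, lay below the pool in 8 of 8 mice on its only probe (chromosome 16, 15801944 to 15802003 of mm8). The log2 ratios were -0.16, -0.22, -0.20 and -0.07 in mice 1 to 4 and -1.40, -0.76, -0.82 and -0.24 in mice 5 to 8. The mean was -0.48 (SD 0.466, n = 8 mice, SE 0.16) and did not pass the adjusted threshold (limma adjusted p = 0.0679), while the exact sign-flip permutation test gave p = 0.00781. With median-centred signals the mean was -1.16 and the call was made (limma adjusted p = 0.00766). All 8 ratios had one direction in 13.3% of all probes tested, and in 2 of the 9 genes here. Every slide 2 mouse lay below every slide 1 mouse, with a slide difference of -0.64 (SE 0.23, limma adjusted p = 0.188) that was -1.72 with median-centred signals (limma adjusted p = 0.0386).

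**Figure D1:**
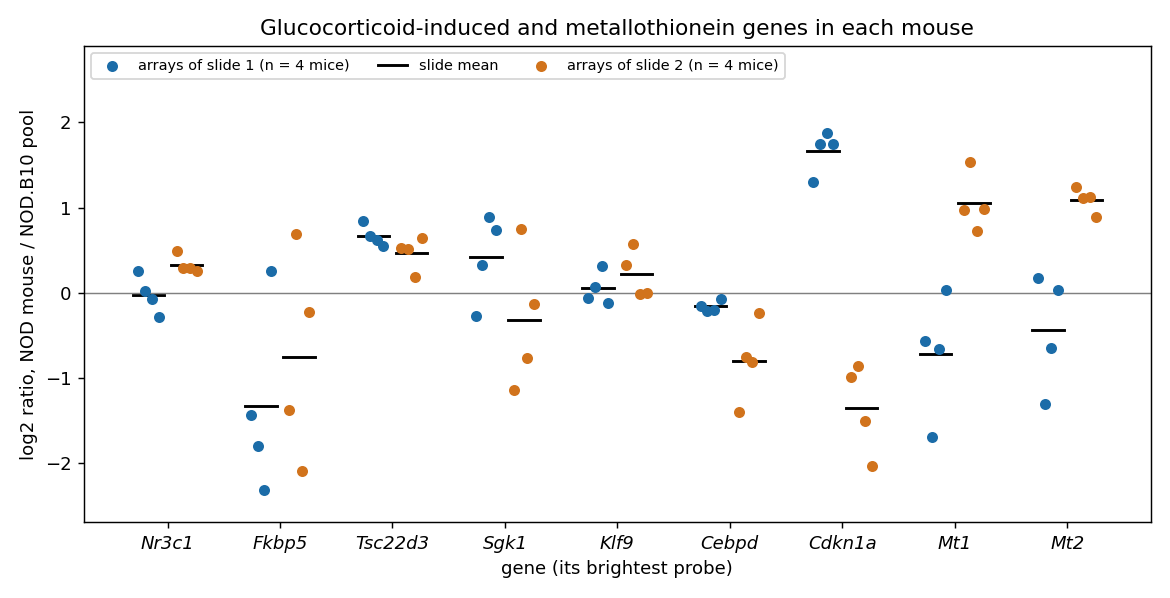
Log2 ratio of NOD over the NOD.B10 pool (vertical axis) for the brightest probe of each of 9 genes (horizontal axis), with 1 point per mouse coloured by slide and a line at the mean of the 4 mice of a slide. The slides separate widely for *Cdkn1a*, *Mt1* and *Mt2*, while *Tsc22d3* lies above 0 and *Cebpd* below 0 in all 8 mice.

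*Cdkn1a*, which encodes p21, was the only member called between slides, and it was lower on slide 2, where most of its red spots were not well above background. On its only probe (chromosome 17, 28828096 to 28828155 of mm8), the log2 ratios were 1.30, 1.75, 1.87 and 1.75 in mice 1 to 4 and -0.99, -0.87, -1.51 and -2.04 in mice 5 to 8. All slide 1 mice thus lay above the pool and all slide 2 mice below it, an opposition seen in 2.72% of all probes tested, and the mean over 8 mice was 0.16 (SD 1.66, limma adjusted p = 0.898). The slide difference was -3.02 (SE 0.28, limma adjusted p = 0.00988). Of all probes tested, 0.064% were called lower and 0.0498% higher on slide 2.

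The *Cdkn1a* red signal was 1245 to 2255 units on slide 1 and 111 to 345 on slide 2, while the green signal of the pool was 418 to 621 on all 8 arrays. In red alone, the slide difference was -3.24 (SE 0.37, limma adjusted p = 0.00704), and in green alone it was -0.22 (SE 0.16, limma adjusted p = 0.946). The NOD signals of the slides were thus far apart, while the pool signals overlapped. The probe is printed in 10 spots on each array. Over these spots the SD of the log2 ratio was 0.08 to 0.18 on slide 1 arrays and 0.29 to 0.71 on slide 2 arrays. Red was well above background in 10 of 10 spots on each slide 1 array, and in 2, 7, 2 and 0 of 10 spots in mice 5 to 8.

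The call for *Cdkn1a* was close to its threshold. When any 1 mouse was left out, the slide difference stayed between -3.18 and -2.79, and the limma adjusted p lay between 0.0157 and 0.0375. After normexp background correction with loess, which shrinks ratios of dim spots, the difference was -1.23 (limma adjusted p = 0.0161).

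**Figure D2:**
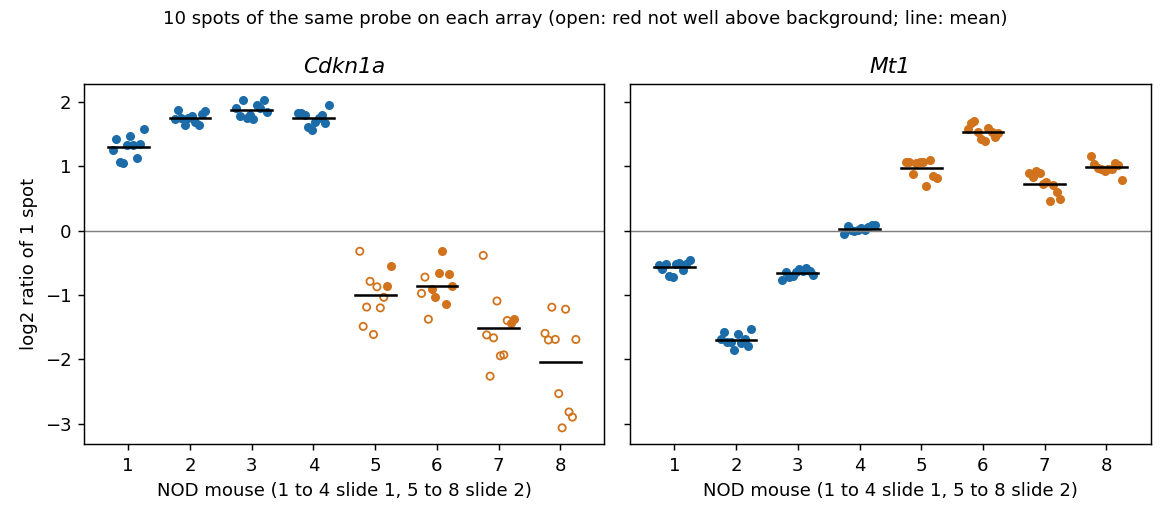
Log2 ratio of single spots (vertical axis) for the 10 spots of the *Cdkn1a* and *Mt1* probes on the array of each mouse (horizontal axis), filled where red is well above background and open where it is not, with a line at the mean. *Cdkn1a* spots are tight and above 0 on slide 1 but scattered below 0 on slide 2, whereas the 10 *Mt1* spots agree within each array.

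On the bright *Mt1* probe and the *Mt2* probe, the ratios lay the other way, higher in every slide 2 mouse than in any slide 1 mouse, but the slide differences did not pass the adjusted test. The bright *Mt1* probe (chromosome 8, 97069240 to 97069299 of mm8) gave log2 ratios of -0.57, -1.69, -0.66 and 0.03 in mice 1 to 4 and 0.97, 1.54, 0.73 and 0.98 in mice 5 to 8. The slide means were -0.72 (SD 0.72, n = 4 mice) and 1.05 (SD 0.34, n = 4 mice), a difference of 1.78 (SE 0.38, limma adjusted p = 0.0597), and over 8 mice the mean was 0.17 (SD 1.08, limma adjusted p = 0.797). Within an array the 10 *Mt1* spots had an SD of 0.05 to 0.17.

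*Mt2* (chromosome 8, 97062600 to 97062659 of mm8) gave 0.18, -1.31, -0.65 and 0.03 in mice 1 to 4 and 1.24, 1.12, 1.12 and 0.88 in mice 5 to 8, and the slides again did not overlap. The slide means were -0.44 (SD 0.68, n = 4 mice) and 1.09 (SD 0.15, n = 4 mice), a difference of 1.53 (SE 0.33, limma adjusted p = 0.0626), and the mean over 8 mice was 0.32 (SD 0.939, limma adjusted p = 0.502). With 1 mouse left out, the *Mt2* mean ran from 0.19 to 0.56. Over 8 mice it was 0.69 after normexp and loess and 0.11 with array weights. In both *Mt1* and *Mt2*, mouse 2 was the lowest. After the slide means were subtracted, *Mt1* and *Mt2* had a Pearson r of 0.77 over 8 arrays, given as a description, since both probes share each hybridization. *Mt2* ranked 57 by this measure among 7386 probes set beside *Mt1*, so many other genes followed *Mt1* more closely.

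The *Mt1* red signal was 12313 to 38509 units on slide 1 and 60882 to 125084 on slide 2, against 31212 to 42797 for green on all arrays. In red alone, the slide differences were 1.73 for *Mt1* (SE 0.37, limma adjusted p = 0.0127) and 1.30 for *Mt2* (SE 0.32, limma adjusted p = 0.0193), a fit in which 845 of all 28105 probes were called higher on slide 2. The *Mt2* slide difference of the ratios was 0.94 with median-centred signals (limma adjusted p = 0.205) and 1.04 after normexp and loess (limma adjusted p = 0.242). In green alone they were -0.04 for *Mt1* and -0.23 for *Mt2*, with limma adjusted p of 0.966 and 0.946. The second *Mt1* probe gave -0.53, -2.30, -0.85 and -1.52 in mice 1 to 4 and -0.06, 0.72, 0.58 and -0.87 in mice 5 to 8. Here the slides overlapped, with a difference of 1.39 (SE 0.51, limma adjusted p = 0.197). *Mt1* and *Mt2* are near relatives, and how far a probe for one takes up RNA of the other was not tested.

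**Figure D3:**
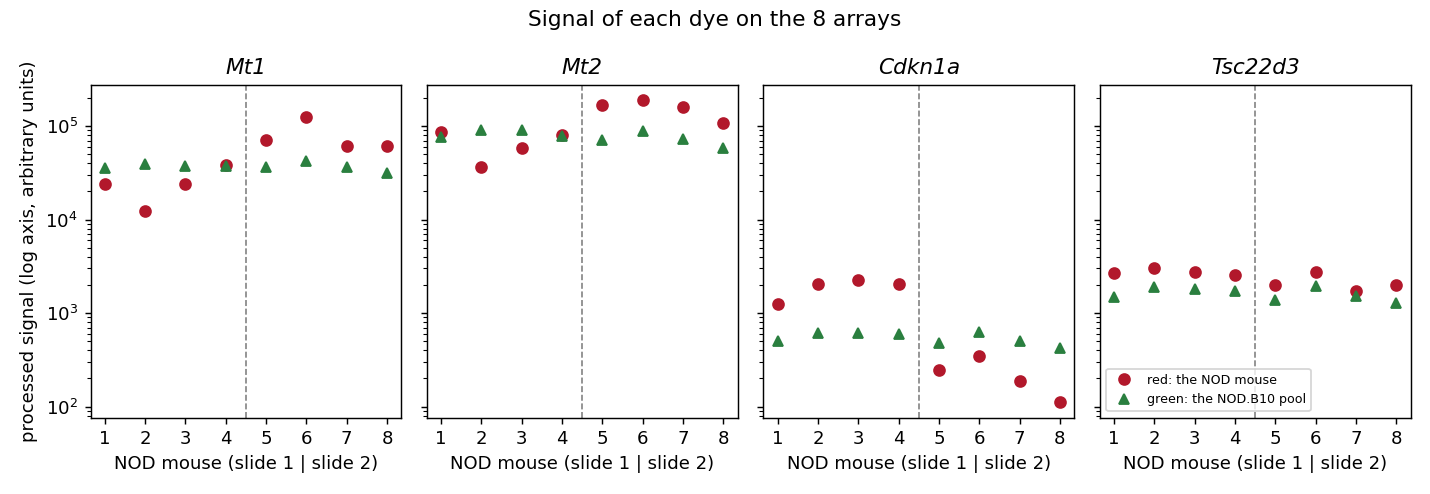
Processed signal in arbitrary units on a log axis (vertical) for *Mt1*, *Mt2*, *Cdkn1a* and *Tsc22d3* on the array of each of 8 mice (horizontal), with red circles for the NOD mouse, green triangles for the pool, and a dashed line between the slides. Green varies little across the arrays, while the red points of slide 2 lie above those of slide 1 for *Mt1* and *Mt2* and below them for *Cdkn1a*.

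Across the 9 genes, the slides did not overlap in 5 (*Nr3c1*, *Cebpd*, *Cdkn1a*, *Mt1* and *Mt2*), against 12.9% of all probes tested. An exact permutation test of 4 against 4 mice gives p = 0.0286, the smallest that this design allows, for any gene whose slides do not overlap. At an unadjusted p under 0.05 in the slide test, 5 of 9 genes passed, against 19.3% of all probes. The genes were chosen with earlier results of these data known, and *Mt1* and *Mt2* moved together, so these counts are descriptions only. Apart from *Cdkn1a*, at -3.02, the glucocorticoid-induced genes had slide differences in both directions. Slide 2 minus slide 1 was 0.57 for *Fkbp5*, -0.20 for *Tsc22d3*, -0.74 for *Sgk1*, 0.17 for *Klf9* and -0.64 for *Cebpd*, with none of these 5 past the test. With 1 mouse left out, these differences ran from 0.0921 to 1.10 for *Fkbp5* (lowest without mouse 6) and from -0.26 to -0.11 for *Tsc22d3*. They ran from -1.10 to -0.47 for *Sgk1*, from 0.0535 to 0.26 for *Klf9* and from -0.83 to -0.44 for *Cebpd*. With median-centred signals the differences were 1.29 for *Fkbp5*, -0.55 for *Tsc22d3* and 0.72 for *Klf9* (limma adjusted p = 0.190, 0.372 and 0.236).

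The cell type marker lists were set beside these slide differences. Of 10 acinar genes, 1 was called higher on slide 2, against 11 of all 18505 genes tested. This was *Cela2a* (an acinar elastase), at -0.47 on slide 1 and 0.64 on slide 2 (n = 4 mice each, limma adjusted p = 0.00849). The summed red acinar signal was 2043960 to 2593480 units on slide 1 and 2321870 to 3671970 on slide 2. For the islet list these sums were 56408 to 218437 and 182328 to 319827. For the T cell, B cell, myeloid, endothelial, fibroblast and stellate, adipocyte, duct and hepatocyte lists, 0 genes were called between slides, where few probes of any kind were. The median slide difference was 0.73 for the adipocyte list, with 6 of 6 genes above 0, -0.82 for the T cell list, with 2 of 7 above 0, and 0.36 for the islet list, with 9 of 10 above 0. The summed red adipocyte signal was 8743 to 19177 units on slide 1 and 9825 to 18689 on slide 2. Their part in the slide differences of *Cdkn1a*, *Mt1* and *Mt2* was not tested.

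The metallothioneins are also liver genes. Of 6 hepatocyte markers, 5 were called lower in NOD than in the pool, against 239 of all 18505 genes tested. Red was well above background on 0 arrays for 3 of the 6. The summed hepatocyte signal was 625 to 1735 units in red over both slides against 4215 to 6383 in green. None of the 6 was called between slides, and the green signal of *Mt1* varied across arrays with an SD of 0.13 (log2). The part of this RNA in the *Mt1* and *Mt2* ratios against the pool was not tested.

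Genes around the members were taken from 6 lists. In the receptor chaperones and coregulators list, 15 of 15 genes were tested, with 0 called against the pool and 1 called lower on slide 2, where 14 of all 18505 genes were. This was *Hsp90aa1*, the inducible HSP90 that holds the receptor in its hormone-binding form, which was 1.09 to 1.92 on slide 1 and -0.97 to -0.67 on slide 2 (difference -2.30, limma adjusted p = 0.00699). *Hspa8*, the constitutive HSP70, just missed the threshold, with means of 1.31 and -0.41 (limma adjusted p = 0.0102). The median slide difference of the list was -0.29, against 0 over all genes tested, and the slides did not overlap in 5 of its 15 genes, against 2655 of all 18505 genes tested.

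In the p53 pathway list, 15 of 16 genes were tested and 1 was called lower on slide 2, against 14 of all 18505 genes tested. This was *Mdm2*, the ubiquitin ligase that p53 induces and that degrades p53, with ratios of 0.03 to 0.34 on slide 1 and -2.17 to -1.56 on slide 2 (difference -2.02, limma adjusted p = 0.00532). Red was well above background for it on 4 of 8 arrays and a stand-in value on 3, so the size of its difference rests on signals near background. The median slide difference of the list was -0.05. The p53-induced *Sesn1* went from -0.95 to -0.19, a difference with a limma adjusted p of 0.124, and the slide difference was above 0 in 7 of the 15 genes tested. The slides did not overlap in 6 of the 15, against 2655 of all 18505 genes. Besides *Mdm2* and *Sesn1*, these were *Zmat3*, *Trp53inp1* and *Phlda3*, with slide differences of -1.26, -0.56 and -0.46, and *Btg2*, at 0.36. Their limma adjusted p ran from 0.107 to 0.236. Against the pool 0 genes of this list were called.

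In the zinc handling and metal response list, all 19 genes were tested and 0 were called in either comparison. The genes furthest from the pool were *Slc39a10*, a zinc importer, at -0.89 (SD 0.685, n = 8 mice, limma adjusted p = 0.0329), with red well above background on 0 arrays, and *Slc39a5*, another importer, at -0.85 (SD 0.600, n = 8 mice, limma adjusted p = 0.0256). Its slides did not overlap, with means of -1.39 on slide 1 and -0.30 on slide 2 (limma adjusted p = 0.0126). The slides did not overlap in 9 of the 19 genes, against 2655 of the 18505 genes tested. *Slc30a2*, a vesicular zinc transporter, just missed the slide threshold, with means of -0.54 and 1.22 (limma adjusted p = 0.0116). Among the genes of lower ratio on slide 2 whose slides did not overlap were the zinc transporters *Slc39a14*, *Slc30a7* and *Slc30a1*, with differences of -1.60, -1.55 and -1.04, and *Mtf1*, the metal-responsive factor itself, at -1.02, with limma adjusted p from 0.0852 to 0.242. Red was well above background on 4 of 8 arrays for *Slc30a1* and *Mtf1*, with a stand-in value on 2 and 1. The remaining genes without overlap were *Hmox1*, with a slide difference of 0.92 (limma adjusted p = 0.0376), *Gclm*, at 0.43, and *Slc30a5*, at -0.42. For *Gclm*, red was well above background on 0 arrays. The median slide difference of the list was -0.10, with 7 of 19 genes above 0. *Mt3* and *Mt4*, the other metallothionein genes on the array, had slide differences of 0.47 and -0.02 (limma adjusted p = 0.259 and 1).

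In the list of other glucocorticoid-induced genes, 28 of 30 were tested and 0 were called in either comparison. The median against the pool was -0.14, where all genes tested had -0.08, and 11 of the 28 had a mean above 0. The slides did not overlap in 3 of the 28, against 2655 of all 18505 genes tested. The genes furthest from the pool were *Arrdc2*, an arrestin-domain gene, below the pool in 8 of 8 mice (SD 0.804, limma adjusted p = 0.0383), and *Per1*, a circadian repressor, at 0.83 (SD 0.517, n = 8 mice, limma adjusted p = 0.0161). *Arrdc2* had red well above background on 1 array and *Per1* on 8. The smallest adjusted p of the list was that of *Dusp1*, which was above the pool in 8 of 8 mice. Its mean of 0.67 (SD 0.265, limma adjusted p = 0.00336) missed the 2-fold limit, with red well above background on 8 arrays. *Il1r2*, below the pool at -0.77 (limma adjusted p = 0.00932), also missed that limit and had red well above background on 0 arrays. In the ligand handling and receptor list, 8 of 10 genes were tested and 0 called. In this list the slides did not overlap in 1 of the 8 tested. Its genes furthest from the pool were the drug and steroid exporter *Abcb1a* at 0.67 (limma adjusted p = 0.241) and *Serpina6*, which encodes the corticosteroid-binding globulin, at 0.64 (limma adjusted p = 0.0790), both with red well above background on 0 arrays.

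In the IL-6 and STAT3 list, 16 of 16 genes were tested. Of these, 1 was called lower in NOD, against 239 of all 18505 genes tested, and 0 between slides. The slides did not overlap in 1 of the 16, against 2655 of all 18505 genes tested. The called gene was *Orm1*, a liver acute phase protein, at -1.25 (SD 0.352, n = 8 mice, limma adjusted p = 0.00103), with red well above background on 0 arrays.

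**Figure D4:**
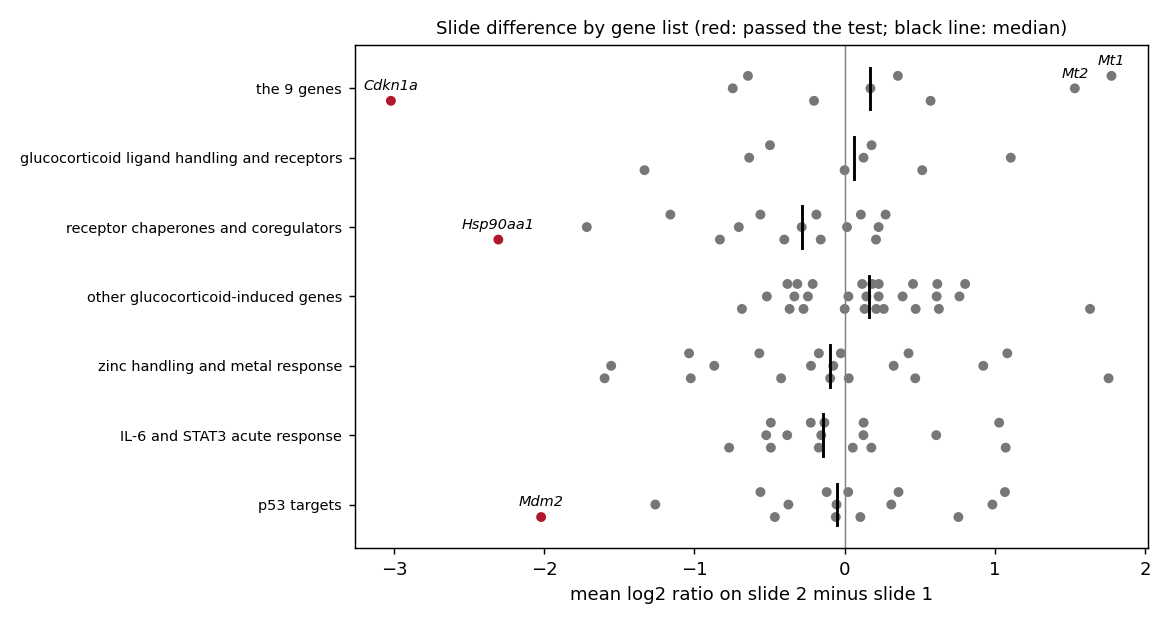
Mean log2 ratio on slide 2 minus that on slide 1 (horizontal axis) for the 9 genes and for the tested genes of 6 lists (rows), with 1 point per gene, red points for genes that passed the slide test and a black line at each list's median. *Cdkn1a*, *Hsp90aa1* and *Mdm2* lie between -3.02 and -2.02, while *Mt1* and *Mt2* lie at 1.78 and 1.53 without passing, and the medians of the 6 lists lie between -0.29 and 0.16.

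Finally, the probes most like each member were sought among 7386 probes with red well above background on all 8 arrays, by Pearson r over 8 arrays after the slide means were subtracted. Of the members, 7 qualified, and *Fkbp5* and *Cdkn1a* did not. The 3 nearest patterns were *4930402H24Rik*, *Camk1d* and *Hnrpm* for *Mt1* (r of 0.97, 0.96 and 0.95), and *Rtkn*, *Smek2* and *Btg2* for *Mt2* (r of 0.99, 0.92 and 0.91). They were *Fbxo34*, *Ankrd25* and *Il17d* for *Tsc22d3* (r of 0.98 to 0.97), *Arfgap3*, *Wdr43* and *Sumo3* for *Sgk1* (0.99 to 0.96), and *Atp5b*, *Rtcd1* and *Arl6ip2* for *Klf9* (0.99 to 0.98). For *Nr3c1* they were *Arl4a*, *Gramd3* and *Cgnl1* (0.99 to 0.97). No member was among the 3 nearest of another member. With 8 arrays and so many probes, high values of r are the rule for the nearest patterns, and they are given as a description.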

How the data were processed

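Pancreas RNA of 8 NOD mice was hybridized against one NOD.B10 pool on two-color Agilent arrays. The authors deposited Feature Extraction (version 10.7.3.1) output per array. The deposited log10 ratios of red over green, which the authors' software made after background subtraction and dye normalization, were turned into log2, and the spots of a probe were averaged. The deposited processed signal intensity of each dye was used for levels; the software puts a stand-in value where a spot is near background. Probe positions are on mm8, and no annotation of that build was used. Arrays have no read depth, and 8 mice limit the precision.

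The 28105 symbol-bearing probes with red signal no lower than 25 on 4 or more arrays entered 2 limma fits (limma 3.58.1 in R 4.3.3), one against 0 and one of slide 2 against slide 1. Benjamini-Hochberg adjustment ran over all of them, and a call needed 2-fold and an adjusted p under 0.01. Single genes were also tested by exact two-sided permutation (256 sign flips, or 70 splits of 4 against 4 mice). The brightest probe of a gene is that with the highest log2 signal, averaged over dyes and arrays. Scripts were tested on simulated data.

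Members and lists were chosen with earlier results of these data known. All probes of the members are given. Of each list of genes around the members, the genes called are given, or the 2 furthest from 0 where none was called. The cell type marker lists are given as counts, medians or summed signals, with only *Cela2a*, *Cd3e*, *Lck* and *Cd3d* named. The hepatocyte genes called are thus not named. *Hspa8*, *Sesn1*, *Slc30a2*, *Slc39a14*, *Slc30a7*, *Slc30a1*, *Mtf1*, *Mt3* and *Mt4* were added after their values were seen. So were *Zmat3*, *Trp53inp1*, *Phlda3*, *Btg2*, *Hmox1*, *Gclm*, *Slc30a5*, *Dusp1*, *Il1r2*, *Lck* and *Cd3d*. Lists were matched by symbol or by an unambiguous RefSeq synonym. The 8 mice are taken as separate animals from their labels. The alternatives tried were other statistics, filters, normalizations, weights, a slide term, thresholds, probes, single dyes and each mouse left out; a signal filter and median removal in the slide test were added after the data were seen. The patterns nearest to *Cebpd* are not reported here.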

Additional observations from a re-analysis of the deposited data

Results flagged for a closer look

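*Cdkn1a* differed between slides by -3.02 (log2, slide 2 minus slide 1), with all 4 mice of slide 1 above the pool and all 4 of slide 2 below it. Most of its red spots on slide 2 were not well above background, and after normexp and loess the difference was -1.23 and not called. Slide and mice cannot be told apart. Of all probes tested, 2.72% had such opposite directions.

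The green pool signal of *Fkbp5* in the array of mouse 6 was the highest and stood away from the other 7, with a gap of 0.647 of the whole range, more than Dixon's 95% limit for 8 values allows. The same array had the highest green signal in 7 of the 9 genes. Ratios, red and green signals of 9 genes gave 27 sets of values, and chance marks about 1 such set in 20.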

How the results depend on the processing

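No paired analysis was possible because all 8 mice form one group. The count of members called higher than the pool was 0 under every alternative, and that called lower was 1 with median-centred signals (*Cebpd*) and 1 among the other probes of the genes (*Nr3c1*). Over all probes, median-centred signals gave 5780 higher and 1307 lower calls against 87 and 397, and moved the median ratio from -0.09 to 0.07. The count of members called lower on slide 2 was 1, and 0 with no signal filter, with normexp and loess, in green alone with or without array medians removed, and 0 (range 0 to 0) with any one mouse left out; over all probes the slide calls then fell from 32 to between 0 and 10. In red alone with array medians removed, 2 members (*Mt1* and *Mt2*) were called higher on slide 2, as were 3597 of all 28105 probes. The causes were not tested.

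These signs reversed. The mean of *Sgk1* was -0.61 with median-centred signals and -0.44 with normexp and loess. That of *Cdkn1a* was -0.0847 with median-centred signals. That of *Mt1* was -0.0628 with array weights and -0.60 on its other probe. For *Nr3c1*, -0.59 and -1.11 came from other probes. With single mice left out, the means ran from -0.0738 to 0.22 for *Sgk1*, -0.0872 to 0.47 for *Cdkn1a* and -0.0303 to 0.43 for *Mt1*. In green, without and with array medians removed, the slide difference was -0.0215 and -0.0670 for *Klf9*, -0.0416 and -0.0870 for *Mt1*, and -0.23 and -0.28 for *Mt2*.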
